A study of Mus musculus with 16 samples.

Results

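The regions described here are those enriched for histone H3 lysine 9 beta-hydroxybutyrylation (H3K9bhb) in the cortex of fasted mice that lie in gene deserts, over 50 kb from any protein-coding gene. They number 1703 among the 8404 regions of the fasted list, or 20.3%. A region was taken when it lay on chromosomes 1 to 19, when its centre was outside all protein-coding and long non-coding RNA (lncRNA) genes and over 1 kb from their ends, and when it was over 50 kb from the nearest end of a protein-coding gene. Runs of 5 or more regions of the list with gaps of at most 20 kb were left out, which removed another 118 regions in 13 runs. The rule used positions only.

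Gene deserts are long stretches of DNA without protein-coding genes. In mammals many of them flank genes for neuronal adhesion and for developmental transcription factors, and some hold distal enhancers that act on a gene far away. H3K9bhb is a histone mark whose acyl group derives from beta-hydroxybutyrate, the ketone body that rises in blood during fasting, and it is best known from gene promoters.

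Chromatin immunoprecipitation with sequencing (ChIP-seq) measured the mark in cortex from the occipital lobe, taken from C57BL/6J mice on postnatal day 35. One group had been fasted for 48 h and the other fed ad libitum, with 4 immunoprecipitated and 4 input libraries in each, 16 in all. The tissue is labelled a cortex homogenate, so more cells with the mark and more of the mark per cell cannot be told apart. The lists give each region 1 value, the authors' log likelihood ratio (log-LR) for fasted over ad libitum, and no value per library, so the sequencing depth is unknown and no spread between mice could be computed. All shares and counts below describe positions in a list, no test between mice was possible, and their intervals cover counting error only. The ad libitum list held 1 region, 8.97 kb from a protein-coding gene end, and so 0 desert regions. None of the 1703 regions overlaps a promoter window or microRNA in the RefSeq sequence tables used here, and their own sequence was not analysed here. For promoters this follows largely from the rule, which keeps region centres away from gene ends, so it is not a result.

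Fasting-enriched regions were about as dense in deserts as in intergenic DNA close to genes. The DNA that meets the desert rule amounts to 734.5 Mb, or 30.6% of the annotated span of the 19 autosomes, and held 2.32 regions per Mb (95% exact Poisson interval 2.21 to 2.43). Intergenic DNA 1 to 50 kb from a protein-coding gene held 1045 regions, or 2.23 per Mb (2.09 to 2.36). The ratio of these densities was 1.04, with a 95% exact binomial interval of 0.964 to 1.13. With runs kept in both classes it was 0.951, so which of these is denser depended on the runs. DNA inside genes held 1.95 regions per Mb (1.87 to 2.04), so deserts were 1.19 times as dense (1.11 to 1.27). The 1 kb around gene ends held 21.2 per Mb, 9.13 times the density of deserts. Of the 7351 autosomal regions outside runs, 23.2% were desert regions (95% Wilson interval 22.2 to 24.1).

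Within deserts the density hardly moved with distance. It was 2.40 per Mb at 50 to 100 kb from a protein-coding gene (366 regions), 2.31 at 100 to 250 kb (521 regions), 2.18 at 250 to 500 kb (369 regions), 2.43 at 500 to 1000 kb (305 regions) and 2.30 beyond 1000 kb (142 regions). All 5 Poisson intervals overlapped, the widest running from 1.94 to 2.71 in the farthest class. The low class among intergenic DNA was the nearest one, 1 to 5 kb from a gene, with 1.54 per Mb (1.30 to 1.81). Assembly gaps and sequence to which reads cannot be assigned were not subtracted from any of these lengths.

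**Figure D1:**
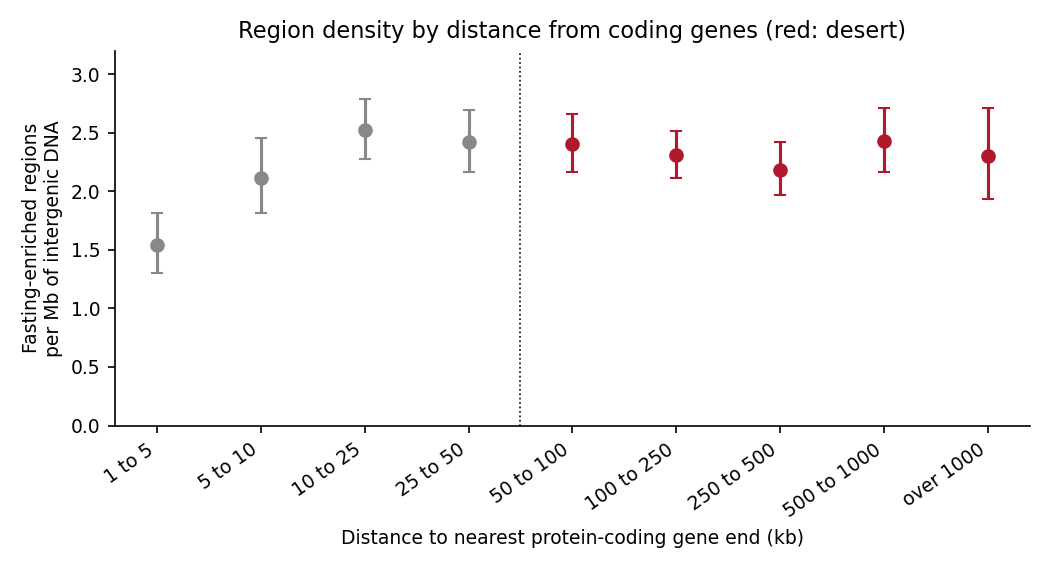
Fasting-enriched regions per Mb of intergenic DNA (vertical axis) in 9 classes of distance from the nearest protein-coding gene end (horizontal axis, kb). Points are densities over the 19 autosomes, bars are 95% exact Poisson intervals, and the dotted line marks the 50 kb limit: the 5 desert classes in red lie between 2.18 and 2.43 per Mb, against 1.54 in the class nearest to genes.

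The median log-LR of desert regions was 4.72 (quartiles 4.07 and 5.89), with a 95% binomial interval of the median from 4.67 to 4.80. It was 4.84 for intergenic regions 1 to 50 kb from genes (4.74 to 4.96), 4.98 inside genes (4.88 to 5.04) and 4.89 at gene ends (4.82 to 4.97). Desert regions were thus slightly lower than the other classes, by 0.11 to 0.25, and their interval overlaps that of the near intergenic regions. The lowest log-LR of the whole list, 3.11, belonged to a desert region. By chromosome, the desert median was below that of regions inside genes on 15 of 19 chromosomes and below that of near intergenic regions on 12 of 19. Median log-LR ran from 4.64 to 4.82 over the 5 desert distance classes, with overlapping intervals.

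A log-LR of at least 5 was reached by 717 desert regions, or 42.1% (Wilson interval 39.8 to 44.5), against 48.8% of the whole fasted list. At least 10 was reached by 66, or 3.88% (3.06 to 4.90), against 5.84% of the whole list, 5.17% of near intergenic regions (3.98 to 6.68), 4.41% of regions inside genes (3.62 to 5.38) and 1.20% at gene ends (0.843 to 1.71). A log-LR of at least 100 was found in 7 desert regions, or 0.411%, against 1.26% of the whole list. The whole list includes the dense runs and the regions off chromosomes 1 to 19, which the rule leaves out here. Among the 7351 autosomal regions outside runs, desert regions included, 46.3% reached 5, 3.31% reached 10 and 0.204% reached 100. Beside these the desert share was lower at 5 but higher at 10 and at 100. The desert intervals at 10 and at 100 (0.199 to 0.846%) include these values. The desert share at 10 lay above that of gene ends and below those of the near intergenic and genic regions, with intervals that overlap the last 2.

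Desert regions had about the same width as the others. Their median width was 204 bp (quartiles 153 and 286 bp), against 199 bp in near intergenic DNA, 197 bp inside genes and 203 bp at gene ends. The shortest had 120 bp, as in the other classes. Only 69 reached 500 bp, and 1 was wider than 1 kb. Together the 1703 regions covered 408.3 kb of DNA. At the distance limit, the 3 regions just inside it lay 50.02 kb from Fgf18 (log-LR 7.10), 50.3 kb from Sdc2 (7.29) and 50.5 kb from Atg7 (5.02). The 3 just outside lay 49.7 kb from Ror2 (11.9), 49.3 kb from Ndst3 (8.09) and 49.3 kb from Akr1b3 (3.86).

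The highest values fell at few places. The sequence and the input signal of these places were not analysed, and whether they lie in repeats was not tested. Their nearest genes are named as labels of position only. The 3 highest desert regions lay within 4.67 kb of each other on chromosome 2 (all coordinates are mm10, counted from 1). They were at 98666646 to 98667256 with a log-LR of 1371, at 98662592 to 98662755 with 416 and at 98665000 to 98665180 with 226.8. This place is 1031 to 1035 kb from Lrrc4c, the gene of a synaptic adhesion protein that binds netrin-G1. The next values were 184.0 on chromosome 12 (3109899 to 3110083, 137.4 kb from Rab10, a vesicle GTPase gene) and 162.0 on chromosome 14 (124801588 to 124802163, 124.2 kb from Fgf14, a gene for a sodium channel regulator of neurons). A region on chromosome 10 (72297189 to 72297321) had 119.3 and lay 357.6 kb from Zwint, a kinetochore gene. On chromosome 19, a region at 61331324 to 61331511 had 111.1 and lay 103.0 kb from Csf2ra, a cytokine receptor gene. The chromosome 16 region at 98107560 to 98107724 had 96.9 and lay 90.9 kb from B230307C23Rik.

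The remaining members of the 10 highest were on chromosomes 17 and 1. The region at 39843042 to 39848044 of chromosome 17 was the widest of all desert regions, with 5003 bp and a log-LR of 85.3. It overlapped Rn18s-rs5, annotated as a pseudogene related to 18S ribosomal RNA, 105.0 kb from the pheromone peptide gene Esp38. On chromosome 1, the region at 195371769 to 195371923 had 79.8, 195.0 kb from the complement receptor gene Cr2. Of the 100 highest regions of the whole list, 6 were among the 1703, which are 20.3% of that list. The rule leaves out high desert regions in runs: 42 of those 118 had a log-LR of at least 100.

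High values were common where a chromosome ends. Of the 1703 regions, 32 (1.88%) lay beyond the outermost protein-coding gene of their chromosome, on 9 chromosomes, but they supplied 5 of the 10 highest and 14 of the 66 with a log-LR of at least 10. Their median log-LR was 6.51 (95% binomial interval 4.83 to 18.6), against 4.71 (4.65 to 4.78) for the 1671 between coding genes. At the starts of chromosomes 26 such regions lay in 2.64 Mb of desert DNA, with a median of 5.39. At the ends 6 lay in 0.342 Mb, with a median of 88.3 and a range of 4.83 to 162.0. Both lengths are counted to the outermost gene record or region, so the outermost sequence without either is not included. The starts with several regions were those of chromosomes 16 (10 regions, up to 11.6), 12 (6, up to 184.0), 13 (5, up to 39.95) and 18 (3, up to 55.4). This grouping was chosen after the values were seen. Without these 32 regions the share at a log-LR of at least 10 was 3.11%. The input libraries were not analysed here.

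**Figure D2:**
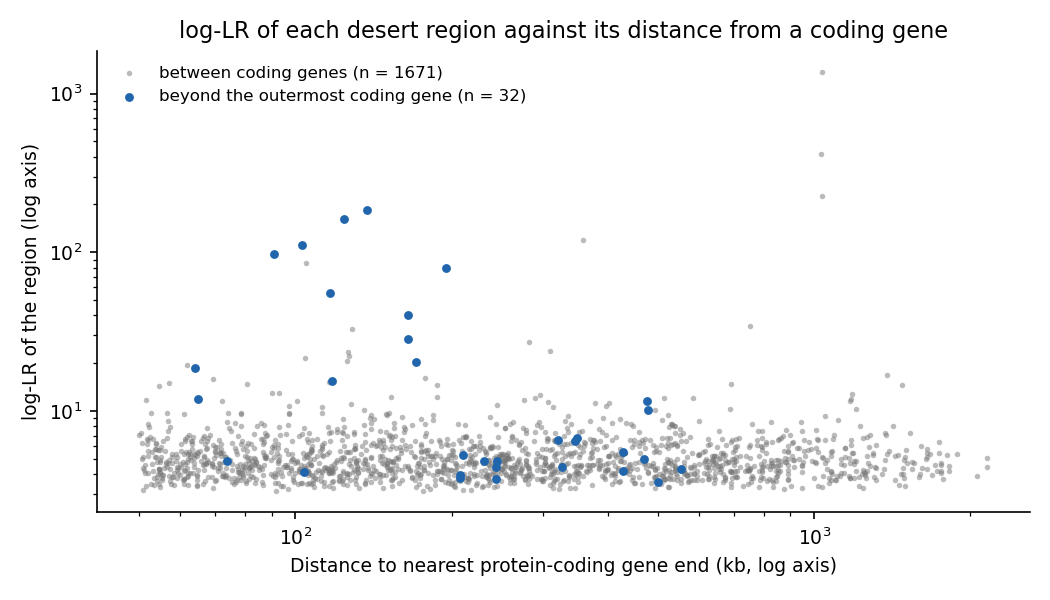
The log-LR of each of the 1703 desert regions (vertical log axis) against its distance from the nearest protein-coding gene end (horizontal log axis, kb). Grey points lie between coding genes (n = 1671) and blue points beyond the outermost coding gene of a chromosome (n = 32), and the 3 points near 1000 kb with log-LR from 226.8 to 1371 are the chromosome 2 regions.

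Other desert regions among the 40 highest are named here for their neighbours, chosen after their values were seen. In the imprinted domain of chromosome 7, a region at 62221349 to 62221488 reached a log-LR of 22.2, lying 126.9 kb from Ndn, a gene expressed from the paternal copy in neurons. On chromosome 5, the region at 118431782 to 118431945 had 32.9 and lay 128.5 kb from Med13l, a Mediator subunit gene. Another on chromosome 15, at 61869144 to 61869391, had 15.2 and lay 116.1 kb from Myc.

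The number of desert regions followed the amount of desert DNA on each chromosome, with some spread. Chromosome 1 had most, 156 in 67.3 Mb, and chromosome 19 fewest, 21 in 11.9 Mb. Per Mb, chromosome 16 was highest with 3.09 (Poisson interval 2.51 to 3.77), followed by chromosome 5 with 2.76 (2.28 to 3.30) and chromosome 15 with 2.66 (2.14 to 3.26). Chromosome 19 was lowest with 1.76 (1.09 to 2.69), and chromosome 8 next with 1.94 (1.54 to 2.40). The interval of chromosome 16 lies above that of chromosome 8 and overlaps that of chromosome 19, and these chromosomes were picked by their densities. Of the 98 regions of chromosome 16, 10 lay at its start near Olfr161, in 0.520 Mb of desert DNA. The interval treats these as independent, and it was not computed without them. On 6 of 19 chromosomes deserts were less dense than the near intergenic DNA of the same chromosome. The widest gaps of this kind were on chromosome 7 (2.57 against 3.501 per Mb) and chromosome 4 (2.11 against 2.95). The opposite order was most marked on chromosome 15 (2.66 against 1.58). Desert regions made up 32.8% of the regions of chromosome 16 outside runs and 11.2% of those of chromosome 19.

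**Figure D3:**
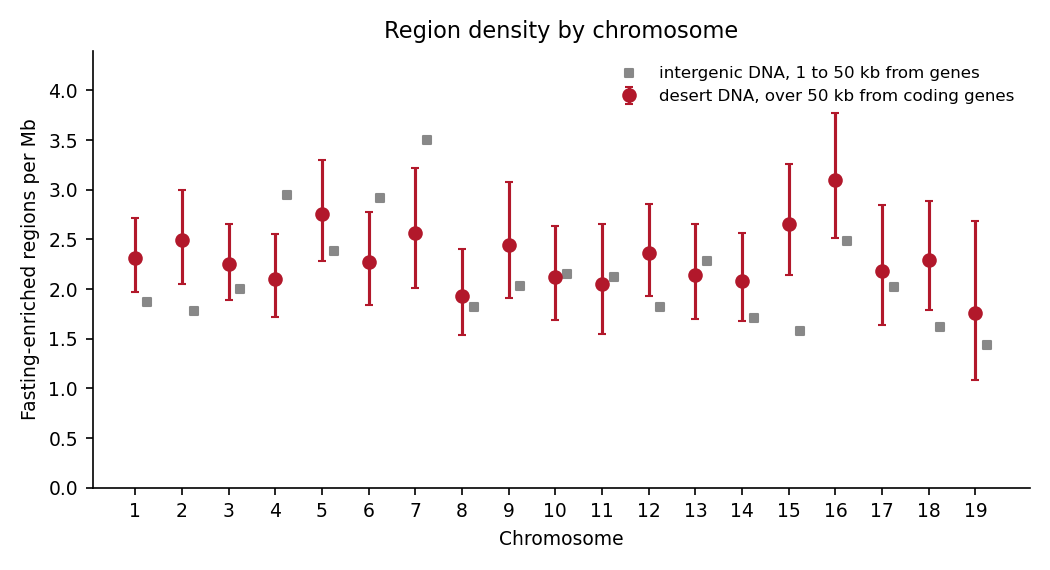
Fasting-enriched regions per Mb (vertical axis) on each autosome (horizontal axis) in desert DNA (red points, bars are 95% exact Poisson intervals) and in intergenic DNA 1 to 50 kb from genes (grey squares). Desert values lie between 1.76 on chromosome 19 and 3.09 on chromosome 16, and the near intergenic value is the higher one on 6 of 19 chromosomes.

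Most desert regions stood alone. In all, 1214 of 1703 (71.3%) had no other region of the list within 20 kb, against 67.8% of near intergenic regions. Another desert region lay within 20 kb of 481 (28.2%, Wilson interval 26.2 to 30.4) and within 1 kb of 281 (16.5%, 14.8 to 18.3). The median distance to the nearest other desert region was 113.9 kb. Of adjacent pairs, 150 were under 1 kb apart, 108 of these under 500 bp, and 78 were 1 to 10 kb apart. There were 175 pairs, 29 groups of 3 and 11 groups of 4 made up of desert regions alone.

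Up to runs of 4, regions in larger groups had slightly lower values. Median log-LR was 4.83 for regions that stood alone, 4.58 in runs of 2, 4.51 in runs of 3 and 4.404 in runs of 4. This order did not go on past the limit of the rule: the 118 desert regions left out in runs of 5 or more had a median of 7.02. The 11 groups of 4 had medians from 3.95 to 6.51 and single values up to 6.97. The highest median was that of the group at the start of chromosome 16 near Olfr161 (values 4.41 to 6.76), followed by groups near the kinase gene Fer (5.16) and near Nell1 (4.93, with the 6.97). The tightest group of 4 spanned 2.17 kb at chromosome 3, 22730108 to 22732279, 513.6 kb from Tbl1xr1, a corepressor subunit gene, with log-LR from 3.69 to 4.61. Others lay 843.2 kb from the cadherin gene Cdh8 (6.82 kb wide, log-LR 3.65 to 4.48), 681.0 kb from Lrfn5, a synaptic adhesion gene (11.0 kb wide, 3.53 to 6.40), 80.4 kb from the ephrin receptor gene Epha3 (2.48 kb wide, 3.53 to 4.36) and 57.6 kb from the contactin gene Cntn1 (2.50 kb wide, 3.45 to 4.82). Among groups of 3, the highest values were those of the chromosome 2 regions near Lrrc4c. These groups were picked after their values were seen.

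Between neighbouring protein-coding genes there were 2415 gaps with desert DNA, tips of chromosomes included, and 713 of them held at least 1 desert region. A single region was found in 344 gaps. The 88 gaps with 5 or more held 614 regions, or 36.1% of all, on 23.4% of desert DNA, and choosing gaps by their count makes the first share the larger one. Large gaps were about as dense as small ones: the 178 gaps with at least 1 Mb of desert DNA held 2.34 regions per Mb, and smaller ones 2.30. Of these 178 gaps, 164 held a region.

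The 6 gaps with most desert regions, the last 3 tied, had a listed neuronal adhesion gene at one side. So had 47 (26.4%) of the 178 gaps with at least 1 Mb of desert DNA. These 47 gaps together held 2.498 regions per Mb, and the other large gaps 2.26, with no interval computed. The 6 were picked by their counts, which rose with desert DNA over all gaps (Spearman rho 0.588). They were not matched in length to the 178, so no enrichment of adhesion genes is read from this. The gap from Pcdh7, a protocadherin gene, to the retrogene G6pd2 on chromosome 5 (58133237 to 61808842) held 18 regions, or 5.12 per Mb of desert DNA, with log-LR from 3.69 to 16.8 and a median of 4.46. The gap from Lrrc4c to Iftap, an intraflagellar transport gene, on chromosome 2 (97631673 to 101560778) held 16, with a median of 4.87 and the 3 highest values of all. On the other side of Pcdh7, the gap from Stim2, an endoplasmic reticulum calcium sensor gene (chromosome 5, 54121058 to 57716144), held 13, from 3.48 to 8.18.

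A further pair of gaps held 12 regions each. One ran from the teneurin gene Tenm3 to the lysosomal enzyme gene Aga (chromosome 8, 49522825 to 53511682), with log-LR from 3.69 to 7.39. The other ran from Dsel, a gene related to dermatan sulfate epimerase, to Cntnap5a, a contactin-associated protein gene (chromosome 1, 111865053 to 115684736), with 3.36 to 5.67. The gap from Lrfn5 to Fscb (chromosome 12, 61857929 to 64471332) also held 12, from 3.53 to 6.81. These gaps were picked by their counts, so nothing is read from their densities. They are long, between 2.61 and 3.99 Mb, and their densities of 3.28 to 5.12 per Mb are above the 2.07 that was the median of gaps with at least 1 Mb of desert DNA.

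Of the 178 gaps with at least 1 Mb of desert DNA, 14 held no region. The largest was the gap between the cadherin genes Cdh6 and Cdh9 on chromosome 15 (13176408 to 16728549), with 3.38 Mb of desert DNA and 0 regions of any class. The gap between Manea and the ephrin receptor gene Epha7 on chromosome 4 (26346919 to 28813065) also had 0 in 2.10 Mb. The next was the gap between Kif2b and Car10 on chromosome 11 (91577556 to 93096804), with 0 in 1.42 Mb. Among gaps with at least 1 Mb of desert DNA, the densest was that from Nup35 to Zfp804a on chromosome 2 (80660072 to 82050128), with 9 regions or 7.08 per Mb and log-LR from 3.69 to 5.14. Of these 9 regions, 4 lay within 3.28 kb of DNA (80813085 to 80816368). Zfp804a encodes a zinc finger protein expressed in neurons. The empty and the densest gaps were chosen after their counts were seen.

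**Figure D4:**
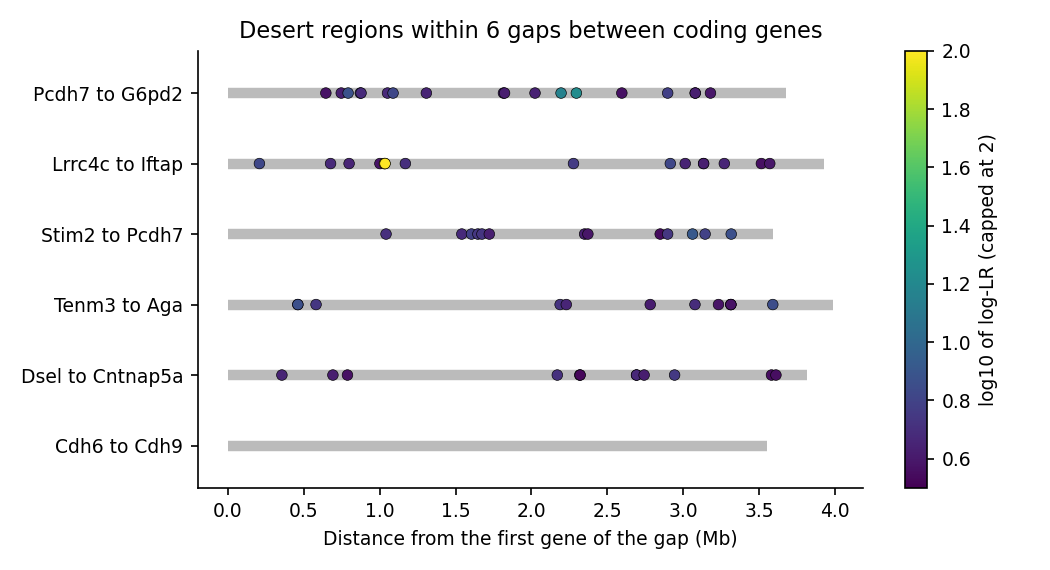
Positions of desert regions in 6 gaps between protein-coding genes, as the distance in Mb from the first gene of each gap (horizontal axis). Grey bars span the gaps, points are regions coloured by the log10 of their log-LR (capped at 2), and the Cdh6 to Cdh9 gap, 3.55 Mb long, has none while Pcdh7 to G6pd2 has 18.

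No ordered change in log-LR ran through all 5 desert distance classes. The median fell from 4.82 at 50 to 100 kb to 4.64 at 500 to 1000 kb, and was 4.72 beyond 1000 kb. The intervals of these medians overlapped. Of the 142 regions beyond 1000 kb, 9 (6.34%, Wilson interval 3.37 to 11.6) reached a log-LR of 10, among them the 3 regions near Lrrc4c, against 5 of 305 (1.64%, 0.702 to 3.78) at 500 to 1000 kb and 3.55 to 4.80% in the 3 nearer classes. The median distance to a protein-coding gene end was 237.1 kb (quartiles 109.9 and 521.6 kb), 447 regions (26.2%) lay beyond 500 kb and 142 (8.34%) beyond 1000 kb. The farthest were 3 regions on chromosome 14 in the gap between Olfm4 and the protocadherin gene Pcdh17, at 82180346 to 82180619 (2157 kb away, log-LR 5.09), 82179207 to 82179494 (2156 kb, 4.41) and 82084569 to 82084762 (2062 kb, 3.87). The next were a region 1888 kb from Pcdh9 (chromosome 14, 91125844 to 91126044, log-LR 5.35) and a pair 1823 and 1816 kb from Pcdh7 (4.17 and 4.47). In the same order followed regions 1800 kb from Aga (5.28), 1771 kb from Nudt12 (3.71), again from Aga at 1759 kb (4.53), and 1755 kb from D3Ertd751e in the gap before Pcdh10 (4.06). All 10 of the farthest had a log-LR between 3.71 and 5.35.

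The nearest protein-coding genes of desert regions were 849 different genes, 462 of them for a single region. The nearest gene is a label of position, and a region need not act on it. Neuronal adhesion genes, listed by symbol, were nearest to 183 regions, or 10.7% (Wilson interval 9.36 to 12.3), and to 10.8% of desert DNA. They were 45 of the 71 listed adhesion genes that have desert DNA, and those with most regions, picked by that count, were Pcdh7 (17 regions), Cntnap5a (12), Lrfn5 and Cdh8 (10 each) and Lrrc4c and Cntn5 (9 each). Their median log-LR was 4.76, and apart from the 3 regions near Lrrc4c the highest was 10.8 near Cadm2, a cell adhesion gene of axons (chromosome 16, 68017661 to 68017971).

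Ion channel and neurotransmitter receptor genes were nearest to 57 regions, or 3.35% (2.59 to 4.31), and to 3.11% of desert DNA, with a median log-LR of 4.38. The highest lay 72.3 kb from the potassium channel gene Kcnk9 (11.5), 313.8 kb from the glutamate receptor gene Grm8 (10.6), 141.9 kb from Kcnip4, a potassium channel partner gene (8.94), and 422.4 kb from the potassium channel gene Kcnt2 (8.91). Axon guidance genes were nearest to 30 regions, or 1.76% (1.24 to 2.50), and to 2.16% of desert DNA. The highest there lay 306.9 kb from the ephrin receptor gene Epha4 (11.4), 167.8 kb from the netrin receptor gene Dcc (8.14), 539.2 kb from the plexin gene Plxna2 (8.05) and 87.7 kb from Ephb3 (6.93). For these 3 lists the share of regions was close to the share of DNA.

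Developmental transcription factor genes, also listed by symbol, were nearest to fewer regions than their DNA share. They had 50 regions, or 2.94% (2.23 to 3.85), against 4.53% of desert DNA, which is 1.503 regions per Mb. Of the 142 such genes with desert DNA, 28 were nearest to a region, with at most 4 each. The same share over all protein-coding genes with desert DNA is not given here, so 28 is not read as low. These 142 genes had 33.3 Mb of desert DNA, against 79.0 Mb for the 71 adhesion genes. Their median log-LR was 5.14, and 0 of the 50 reached 10, which allows a share of up to 7.13% by the Wilson interval and so includes the 3.88% of all desert regions. The highest lay 523.5 kb from Sall3 (9.45), 139.1 kb from Foxd1 (9.05), 84.2 kb from the LIM homeobox gene Lhx8 (8.01) and 120.1 kb from the T-box gene Tbx18 (7.66).

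Chemosensory receptor genes, which are used in the nose and tongue, were nearest to 22 regions, or 1.29% (0.855 to 1.95), against 0.588% of desert DNA. Of these 22 regions, 13 lay beyond the outermost coding gene, at the starts of chromosomes 16 (nearest gene Olfr161) and 18 (nearest gene Vmn1r238). The 4 highest were 55.4 and 15.5 near Vmn1r238, 11.6 near Olfr161 and 10.6 near Vmn2r37, the last inside the pseudogene Gm3623. Activity-induced genes were nearest to 3 regions (0.176% against 0.166% of desert DNA), all near Nr4a2, a nuclear receptor gene, at 86.1, 160.4 and 465.2 kb with log-LR of 4.30, 3.65 and 3.46. Of 15 marker genes of cortical cell types and of tissues outside the dissection, from Slc17a7 to Acta1, 0 were nearest to a desert region, and 3 had any desert DNA next to them. The remaining 1358 regions (79.7%) were nearest to genes in none of the lists, which had 78.7% of desert DNA.

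**Figure D5:**
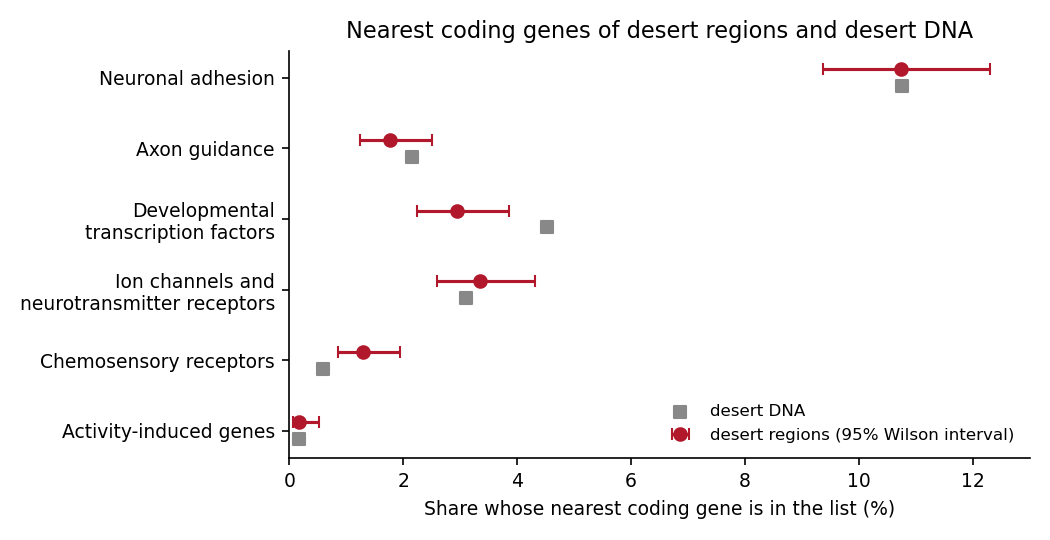
Share in percent (horizontal axis) of desert regions (red points, 95% Wilson intervals) and of desert DNA (grey squares) whose nearest protein-coding gene is in each of 6 gene lists. The shares are close for neuronal adhesion (10.7 and 10.8%), while developmental transcription factors have 2.94% of regions and 4.53% of DNA and chemosensory receptors 1.29% and 0.588%.

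The rule left pseudogenes, antigen receptor loci and small RNA genes free. Pseudogenes held the centre of 35 desert regions (2.06%, Wilson interval 1.48 to 2.84) and make up 1.35% of desert DNA. Besides Rn18s-rs5, which the chromosome 17 region overlaps without its centre, those with the highest log-LR, picked by these values, were Gm13377 (21.4), Gm3623 (10.6) and Gm14292 (9.17). Antigen receptor loci, whose gene segments are rearranged in lymphocytes and are not listed as protein-coding genes, held 17 regions, or 0.998% (0.624 to 1.59), on 1.02% of desert DNA. There were 9 in the kappa light chain locus Igk, 6 in the heavy chain locus Igh and 1 each in Igl and Tcra, and their log-LR reached 8.47 with a median of 5.58. MicroRNA, snRNA, snoRNA, tRNA and rRNA genes were overlapped by 0 desert regions, which allows a share of up to 0.225% by the Wilson interval for each. These genes make up at most 0.00518% of desert DNA per type.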

How the data were processed

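H3K9bhb was profiled in 16 libraries, 4 immunoprecipitated and 4 input libraries each from fasted and ad libitum fed mice. The submitters' processing notes name Bowtie2, MACS2 and the build mm10. The authors deposited 2 lists of regions, higher in fasted and higher in fed mice, each region with a log likelihood ratio, which was used as deposited by the authors, as a score. How replicates were pooled, how depth was scaled and which log base and cutoff were used is not given in the sources used here. A list of called regions holds no value below its cutoff, and the depth per sample is unknown.

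Regions were placed on the RefSeq gene table of GRCm38.p6, with starts read as counted from 0. Of its 47042 records on chromosomes 1 to 19, 328 had coordinates below 3 Mb, where these chromosomes have no assembled sequence, and were left out. The same rule was applied to DNA, between the first and last record or region of each chromosome and without removing assembly gaps. Poisson intervals of densities, binomial intervals of density ratios and medians and Wilson intervals of shares (95% level) treat regions as independent. Neighbour lists are patterns of gene symbols, matched to the nearest protein-coding gene. A list can thus include genes of a named family, such as Lmo7, whose role was not checked. Genes were named by fixed rules: the 10 regions of highest log-LR, the 10 farthest from genes, the 5 gaps with most regions (6 with a tie), 3 regions on each side of the limit and up to 4 per neighbour list. Others are marked where named as picked by their values or counts. The members and lists were chosen with earlier results of these data known. The class assignment and DNA lengths were checked on a simulated chromosome. The work used scipy 1.17.1, matplotlib 3.10.9, pandas 2.3.3 and numpy 2.4.6 under Python 3.11.15. A planned step on sequence content was not run, because no genome was used here.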

Additional observations from a re-analysis of the deposited data

How the results depend on the processing

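Of 76 alternatives tried, 60 left the value within its counting interval, or a number within 1.5 times. Some alternatives define another quantity, such as a share past another log-LR limit, so this tally does not measure how stable the results are. The number of desert regions ran from 1337 with a limit of 100 kb to 2037 with 25 kb. Their share of the autosomal regions was 18.2% at 100 kb, 27.7% at 25 kb and 27.6% when genes with model symbols were not counted. With rows within 1 kb merged, the median log-LR was 4.83 and the median width 214 bp. With a log-LR of at least 5 the median was 6.17. With rows in runs kept, the density ratio to near intergenic DNA was 0.951 in place of 1.04. Shares past another log-LR limit were 42.1% at 5, 1.29% at 20 and 0.411% at 100, in place of 3.88% at 10. Another desert region lay within 10 kb of 24.6% and within 50 kb of 37.6%. When either flanking gene counted, the list shares were 19.6% for neuronal adhesion, 3.64% for axon guidance, 5.99% for developmental transcription factors and 7.34% for channels and receptors. Counting both flanking genes can only raise a share. The share of desert DNA by either flanking gene was not computed, so these values cannot be set against the DNA shares by nearest gene. The causes were not tested. Some alternatives were chosen after seeing the data: with gene records below 3 Mb counted, the same 1703 regions had a density of 2.21 per Mb, as dense as near intergenic DNA within rounding, without the regions beyond the outermost coding genes 3.11% reached a log-LR of 10, and without the 10 highest 3.31% did. No paired analysis was possible because neither list has values for single libraries, and no library could be left out for the same reason.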

Other observations

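The sex chromosomes were outside the rule. On X, 132 regions outside runs met the same distance limits, or 1.82 per Mb of desert DNA, with a median log-LR of 4.39, and 54 lay in intergenic DNA 1 to 50 kb from genes, or 1.27 per Mb. On Y, 26 met the limits, or 0.401 per Mb, with a median of 7.14, and 12 lay in intergenic DNA 1 to 50 kb from genes, or 0.527 per Mb. Deserts thus had the higher density on X and the lower on Y.

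The 118 desert regions left out with their runs had a median log-LR of 7.02, and 45 of them reached 10. The 36 in the run at the start of chromosome 9 (3000223 to 3038248, 297.2 kb from Alkbh8) had a median of 512.2 and a maximum of 1498, the highest of the whole list. The 6 on chromosome 14 (19415771 to 19419422, 114.4 kb from Gm2244) had a median of 533.4 and a maximum of 909.5. The other 11 runs had medians between 4.04 and 6.91. The highest value in these was 14.0, in a run of 7 on chromosome 16 (3325347 to 3360576, 231.9 kb from Olfr161), followed by 10.7 in a run of 16 on chromosome 8 (20030617 to 20138578, 95.4 kb from 9530057J20Rik).

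Among genes in none of the neighbour lists, those nearest to most desert regions, picked by that count, were G6pd2 with 10 and Aga, Brinp3, Cox7c and Csmd3 with 9 each. Brinp3, expressed in neurons, had the highest median log-LR of these 5, 6.29, and Cox7c, a mitochondrial respiratory subunit gene, the lowest, 3.69.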
